A study of Mus musculus with 3 samples.

Results

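Cadherins and protocadherins were followed in embryonic mouse cortex across 3 two-colour microarrays that compared mice lacking exon 6 of Snf2l with wild-type controls. The members are the probes whose gene symbol in the platform annotation is Cdh and a number, or begins with Pcdh. There are 151 such probes among 38880, and they represent 90 genes among 28342 features (genes, or single probes without a gene symbol). Of the 90 genes, 21 are Cdh genes with 36 probes, 58 are clustered protocadherins with 93 probes and 11 are non-clustered protocadherins with 22 probes. The Cdh genes comprise 5 classical type I cadherins, 11 classical type II cadherins and 5 genes outside both types (Cdh13, Cdh16, Cdh17, Cdh23 and Cdh26). The platform lists no probe under the names Cdh12, Cdh19, Pcdh1 and Pcdh17.

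Cadherins are membrane proteins that bind calcium and join cells, most often to cells that carry the same cadherin. Classical cadherins attach to actin through the catenins, and each tissue is marked by its own: E-cadherin in epithelia, N-cadherin in the neuroepithelium and neurons, VE-cadherin in blood vessels. Clustered protocadherins are made from neighbouring gene clusters named alpha, beta and gamma, in which each neuron expresses a few isoforms that serve self-recognition of its branches. Alpha and gamma isoforms of a cluster share their last exons, and members of a cluster resemble each other in sequence. Non-clustered protocadherins of the delta groups mark regions and circuits of the developing brain.

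RNA came from cortices at E15.5 (embryonic day) in the 129Sv background, which both genotypes shared. Snf2l is an older name of Smarca1, a chromatin remodelling ATPase of the ISWI family, and the mutant is labelled Snf2l-Ex6DEL. The labels state neither litter, sex, pooling nor how the deletion was made. By the study's description 2 samples per genotype were used: replicates 1 and 2 hold 1 pair of RNAs in both dye orientations (pair 1), and replicate 3 is the other pair (pair 2), so that n = 2 pairs.

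Every value below is a log2 ratio of the channels of 1 array, so that the data give differences and not levels. Values above 0 are read as higher in the mutant, which the order of channels in the labels makes likely but which is not stated. If the ratio was formed the other way, all signs turn. Smarca1 itself, with 1 probe whose place relative to exon 6 is not known here, read -0.02, 0.36 and 3.11 on replicates 1 to 3 and so checks neither the labels nor the deletion. Many spots shared 1 value per array (0.009, 0 and 0.001), which made up 11.7%, 16.6% and 21.9% of all spots and 5.30%, 10.6% and 14.6% of the members' spots. Such a spot is called not measured here: it was left out of counts of signs but stayed in the mean of a gene's probes, so that a gene with such a probe has a mean pulled toward 0. All 24 cortical marker genes with a probe, from neurons, progenitors and interneurons, had a measured spot on every array.

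Limma's moderated test over the 2 pairs called no member. With 2 pairs it could hardly call any feature, so that 0 calls do not show that the genotypes are alike. The test called 0 of 90 members at an adjusted p of 0.05, as it called 0% of all 28342 features, with adjusted p-values of 0.852 and above. Before adjustment, 0 members and 2.52% of all features had a p under 0.05. Taking the 3 arrays as independent, adding a dye term or using robust eBayes gave 0 calls among members and among all features after adjustment as well, and the fit with a dye term had 8 members at an unadjusted p of 0.05. The counts that follow therefore describe these arrays. At least 1.5-fold (0.58 on the log2 scale) in one direction on all 3 arrays held for 0 of 90 members and for 2.85% of all features.

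On the dye-swapped arrays of pair 1, 10 of 90 members (11.1%) were at least 1.5-fold from 1 in one direction on both, beside 14.7% of all features. Of these, 7 were lower in the mutant (7.78%, beside 9.17% of all features) and 3 were higher (beside 5.55%). These shares were not above the background. The 7 were Cdh1, Cdh3, Cdh5, Cdh11, Cdh15, Pcdh18 and Pcdhb14, and the 3 were Pcdh21, Pcdhgb5 and Pcdhgb6. Pcdhgb5 and Pcdhgb6 passed as means of 2 probes. These had opposite signs on replicate 2 for Pcdhgb5 and on replicate 1 for Pcdhgb6. Among the Cdh genes alone, 5 of 21 (23.8%) were past 1.5-fold lower on both arrays and 0 were past it higher. By sign alone, 7 of the 19 Cdh genes measured on both (36.8%, beside 29.7% of all features so measured) were below 0 on both. Above 0 on both were 5 (26.3%, beside 28.2%). Among the clustered protocadherins, 3 of 58 (5.17%) were past the threshold in either direction.

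Group medians stayed near 0. The Cdh genes had medians of 0.02, -0.31 and 0.02 on replicates 1 to 3, the clustered protocadherins 0.06, 0.15 and 0.11, and the non-clustered protocadherins 0.07, 0.05 and -0.14. The median of all features was 0.009, 0 and 0.001. Of 80 members measured on every array, 14 (17.5%) were above 0 on all 3, beside 12.9% of the 18973 features so measured. A further 5 (6.25%) were below 0 on all 3, beside 14.6% of features.

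The type I cadherins of epithelia read low in the mutant in pair 1 and high in pair 2. Cdh1, which encodes E-cadherin of epithelial junctions, read -2.57 on replicate 1, -2.41 on replicate 2 and 2.87 on replicate 3. That is 5.62-fold lower in pair 1 and 7.33-fold higher in pair 2, so that the pairs lie on opposite sides of 0. In limma its mean over the 2 pairs was 0.19 with a moderated SE of 1.87 and an adjusted p of 0.997. Cdh3, which encodes P-cadherin of epidermis and placenta, read -1.68, -1.09 and 2.24 as the mean of its 3 probes. On replicate 2 only 1 of the 3 probes was measured, at -3.26, and on replicate 3 the 2 measured probes read 2.62 and 4.09. All measured Cdh3 probes were thus below 0 in pair 1 and above 0 in pair 2.

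The other type I cadherins differed from these. Cdh15, the M-cadherin of skeletal muscle cells and their precursors, read -0.99 and -2.07 in pair 1, and its spot on replicate 3 was not measured. Cdh2, the N-cadherin of neuroepithelial junctions, read 0.43, 0.59 and -0.54 as the mean of 4 probes. All 4 of its probes were above 0 on both arrays of pair 1 and below 0 on replicate 3, the reverse of Cdh1 and Cdh3. The Cdh2 probes ranged from 0.03 to 1.17 on replicate 1, from 0.34 to 1.18 on replicate 2 and from -1.13 to -0.02 on replicate 3. Cdh4, the R-cadherin of retina and brain, read -0.19, 0.23 and 0.02, with both arrays of pair 1 on different sides of 0.

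**Figure D1:**
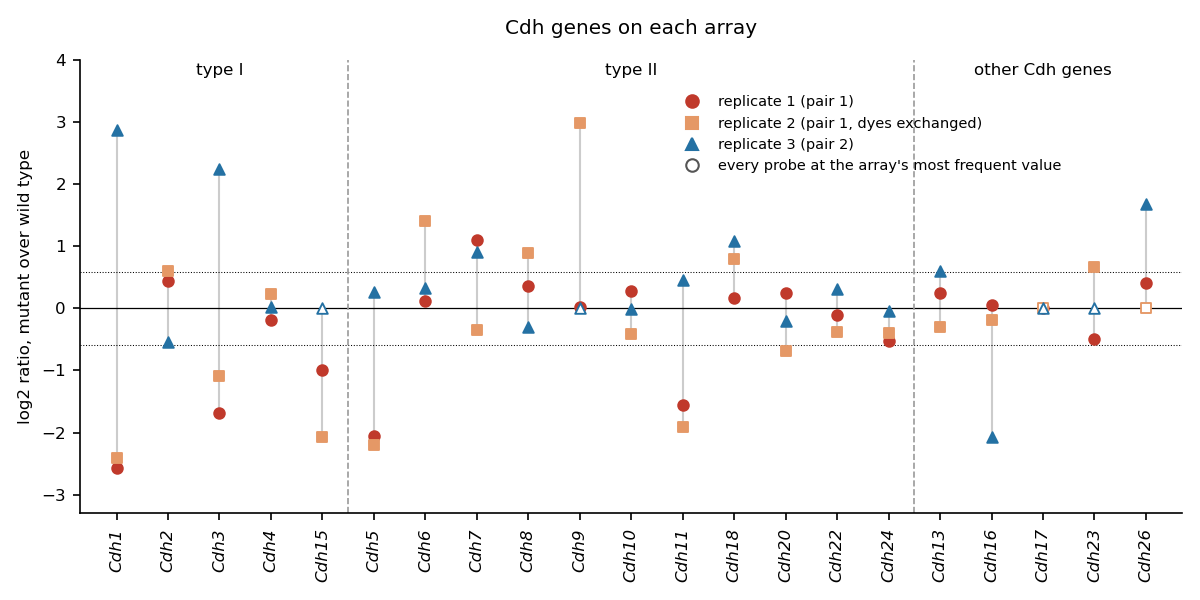
Log2 ratio (vertical axis) of each of the 21 Cdh genes on replicates 1, 2 and 3, averaged over a gene's probes. Dotted horizontal lines mark 1.5-fold, solid vertical grey lines span a gene's values, and open symbols mark genes with no measured spot on that array. Cdh1, Cdh3, Cdh5, Cdh11 and Cdh15 lie below the lower dotted line on both arrays of pair 1, and none of them does on replicate 3.

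Among type II cadherins, the vascular and the mesenchymal one had the lowest ratios in pair 1. Cdh5, the VE-cadherin of endothelial junctions, read -2.05 and -2.19 in pair 1, a mean ratio 4.36-fold below 1, and 0.26 in pair 2. The mean over the 2 pairs was -0.93 with a moderated SE of 0.85 and an adjusted p of 0.852 in limma. Cdh11, a cadherin of mesenchyme and osteoblasts that is also found in brain, read -1.56, -1.92 and 0.45. Its 3 probes were all below 0 on both arrays of pair 1, between -2.26 and -1.41, and read -0.53, 0.94 and 0.95 on replicate 3. For Cdh5 and Cdh11 the pair 2 value thus lies above both values of pair 1.

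The remaining type II cadherins, most of them known from subdivisions of the brain, were nearer to 0 or not repeatable between the dye-swapped arrays. Cdh8, which marks regions of the cortex, read 0.36, 0.89 and -0.30, with its 2 probes at -0.28 and 2.05 on replicate 2. Cdh6, found in brain subdivisions and in kidney, read 0.12, 1.41 and 0.33, and Cdh18 read 0.17, 0.80 and 1.08. These were the only Cdh genes above 0 on all 3 arrays among those measured on each. Cdh24 was below 0 on each array, at -0.52, -0.39 and -0.04. Cdh10 read 0.28, -0.41 and -0.02, Cdh20 0.25, -0.69 and -0.21, and Cdh22 -0.12, -0.38 and 0.31. Cdh7 read 1.09, -0.36 and 0.91, and Cdh9, a synaptic cadherin of the hippocampus, read 0.02 and 2.98 in pair 1 without a measured spot on replicate 3. In Cdh7, Cdh10 and Cdh20 both arrays of pair 1 lay on different sides of 0.

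The Cdh genes outside types I and II were seldom measured in full. Cdh13, the T-cadherin that is anchored to the membrane by a lipid, read 0.24, -0.31 and 0.60, and its 3 probes were all above 0 on replicates 1 and 3. Cdh16, a cadherin of kidney, read 0.05, -0.18 and -2.07. Its 2 probes read 0.77 and -4.91 on replicate 3, and the second was not measured in pair 1. Cdh17, a cadherin of liver and intestine, was not measured on any array. Cdh23, a part of the tip links of inner ear hair cells, read -0.50 (-0.75 over its measured probes) and 0.66 in pair 1 and was not measured on replicate 3. Cdh26 read 0.40 and 1.67 on replicates 1 and 3 and was not measured on replicate 2.

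The 5 Cdh genes past the threshold in pair 1 lie on 1 chromosome, a pattern seen after their values were known and not tested. By RefSeq (assembly GRCm38.p6) 8 of the 21 Cdh genes are on mouse chromosome 8, and Cdh1, Cdh3, Cdh5, Cdh11 and Cdh15 are 5 of these 8. The others there, Cdh8, Cdh13 and Cdh16, did not pass the threshold, nor did any of the 13 Cdh genes of other chromosomes. Of all 963 genes there with a probe, 10.3% were past 1.5-fold lower in pair 1, beside 9.17% of all features.

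Marker genes of the tissues in which these cadherins are known were mostly, not all, below 0 in pair 1. Past 1.5-fold lower on both arrays of pair 1 were 9.17% of all features, the share to set beside each count here. Of 6 markers of skin and other epithelium, 4 were past 1.5-fold lower on both arrays of pair 1. They ranged from -6.25 to -0.05 on replicate 1, from -5.22 to 0.19 on replicate 2 and from -0.15 to 6.62 on replicate 3, and Krt14, a keratin of basal epidermis, was not measured on replicate 2. Krt5, another basal keratin, stayed near 0 in pair 1 at -0.05 and 0.19, and Epcam, an epithelial adhesion molecule, read -0.15 on replicate 3, where Cdh1 read 2.87. Of 6 endothelial and pericyte markers 3 were past it, with ranges of -2.69 to 0.74, -1.69 to -0.41 and -0.02 to 1.83. Cldn5 of endothelial tight junctions and Rgs5 of pericytes were above 0 on replicate 1, at 0.74 and 0.44, where Cdh5 read -2.05. All 7 markers of meninges and fibroblasts were past it, with medians of -3.45, -3.50 and 2.35, and on replicate 3 they ranged from -2.41 (Ptgds) to 3.89. Of 5 markers of cartilage and bone with a probe 3 were past it, with medians of -2.62, -2.56 and 0.35. All 6 markers of skeletal muscle were past it too, from -9.72 to -4.16 on replicate 1 and from -9.41 to -2.77 on replicate 2. On replicate 3 they ranged from -0.08 to 3.80, and Myod1, a regulator of muscle fate, was not measured there.

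Of the 24 cortical markers together, 16 (66.7%, beside 5.55% of all features) were past 1.5-fold higher in pair 1. None of them was past it lower (beside 9.17%), and their medians were 1.42, 1.19 and 0.04. Apical progenitors, the neuroepithelial cells whose junctions hold Cdh2, had 1 of 5 markers past it, Sox2 at 1.20, 1.15 and -0.53. Their marker Nes read -1.95, 3.08 and -1.65, and Vim read -0.65, -0.45 and 0.15. All 5 deep-layer neuron markers were past it, with medians of 2.61, 2.32 and 0.33, so that their median on replicate 3 was above 0 where all 4 Cdh2 probes were below. The part of other tissues in the cadherin ratios was not tested. In such bulk RNA, fewer cells of a type, less RNA per cell and a differing share of other tissue in the samples cannot be told apart.

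**Figure D2:**
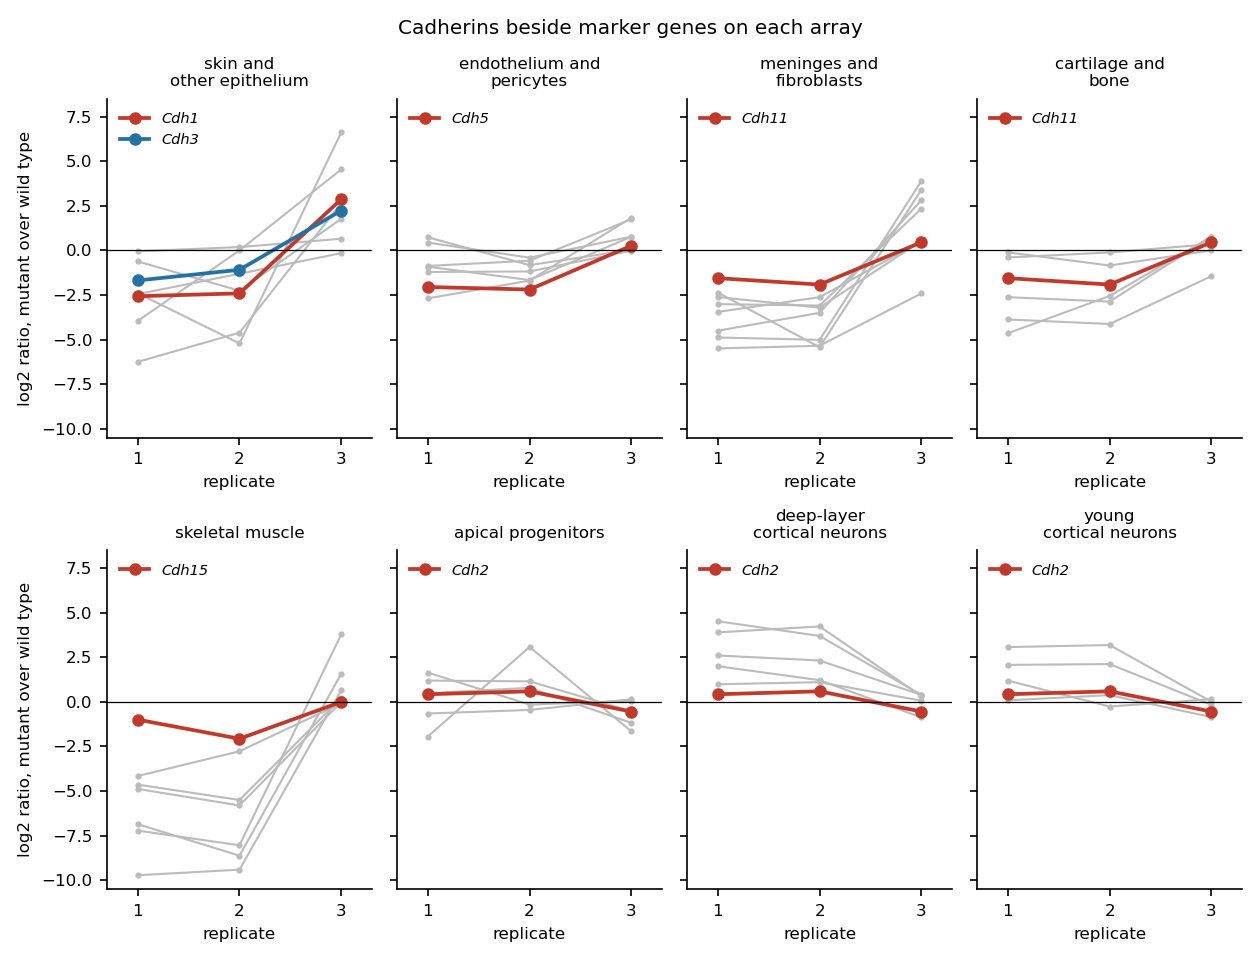
Log2 ratio (vertical axis) on replicates 1, 2 and 3 (horizontal axis) of cadherins (coloured, means of a gene's probes) and of the marker genes of a tissue (grey, 1 line per gene), with spots at an array's most frequent value drawn at that value. Cdh1, Cdh3, Cdh5, Cdh11 and Cdh15 lie below 0 on replicates 1 and 2 with most of the grey lines of their panel, and Cdh2 lies above 0 there with all 5 deep-layer markers but not with all 5 of apical progenitors.

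Promoter sequences are shown for the members past the threshold in pair 1 that the RefSeq promoter table holds and that may be shown here: Cdh15 and Pcdh18, lower in the mutant, and Pcdh21 (now Cdhr1), higher. Each is 300 bases of assembly GRCm38.p6, from 250 before to 50 after the start site, read on the gene's strand. Capitals mark the E-box CANNTG, the motif of basic helix-loop-helix factors such as MyoD in muscle, which reads the same on both strands.
Cdh15 (chr8:122848124-122848423, plus strand): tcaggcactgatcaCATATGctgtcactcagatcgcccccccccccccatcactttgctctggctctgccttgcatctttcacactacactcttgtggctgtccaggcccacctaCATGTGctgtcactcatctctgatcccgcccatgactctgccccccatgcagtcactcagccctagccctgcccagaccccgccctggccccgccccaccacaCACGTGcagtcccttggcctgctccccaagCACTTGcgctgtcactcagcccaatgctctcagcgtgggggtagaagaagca
Pcdh18 (chr3:49757267-49757566, minus strand): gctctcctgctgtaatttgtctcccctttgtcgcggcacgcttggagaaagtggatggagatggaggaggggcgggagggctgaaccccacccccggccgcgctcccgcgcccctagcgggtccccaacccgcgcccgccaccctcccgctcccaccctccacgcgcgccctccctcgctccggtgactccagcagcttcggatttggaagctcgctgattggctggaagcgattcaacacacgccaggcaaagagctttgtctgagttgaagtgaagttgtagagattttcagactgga
Pcdh21 (chr14:37098298-37098597, minus strand): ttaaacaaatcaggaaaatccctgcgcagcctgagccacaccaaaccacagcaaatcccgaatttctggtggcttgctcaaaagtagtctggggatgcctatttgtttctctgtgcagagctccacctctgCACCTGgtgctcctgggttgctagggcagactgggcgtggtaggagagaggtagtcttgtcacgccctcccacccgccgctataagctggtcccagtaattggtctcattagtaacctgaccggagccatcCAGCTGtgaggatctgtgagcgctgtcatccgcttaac
The Cdh15 window holds 4 E-boxes, that of Pcdh21 holds 2 and that of Pcdh18 holds 0. Of all 32851 promoters in the table, 72.3% hold at least 1, 39.6% at least 2 and 6.49% at least 4. The GC content was 61.3% for Cdh15, 63% for Pcdh18 and 54% for Pcdh21, against a median of 52.7%. Matches are letters in these windows, and binding was not measured.

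The delta-2 protocadherins, which mark regions and circuits of the brain, were split in direction. Pcdh10, which guides growing axons in the forebrain, read 0.57, 0.81 and -0.85. Its 3 member probes were all above 0 on both arrays of pair 1 and all below 0 on replicate 3, as for Cdh2. A further Pcdh10 probe, listed under an older name and not a member, read 0.34, -1.24 and 0.50. The mean of the 3 member probes on replicate 1 was just short of 1.5-fold. Pcdh18 lay just past it the other way, at -0.62 and -0.64 in pair 1 and 0.11 in pair 2. Pcdh8 read 0.29, 0.16 and -0.86, with its 2 probes on different sides of 0 on replicate 2. Pcdh19, an X-linked gene linked to epilepsy in humans, read -0.16, 0.94 and 0.20, with both arrays of pair 1 on different sides of 0.

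The delta-1 protocadherins showed no common direction. Pcdh9 read 0.44, 0.05 and -1.11, but 1 of its 3 probes gave -3.61 on replicate 3 where the others gave -0.06 and 0.34. Pcdh7 read -0.19, -0.59 and 0.19, and its measured probes alone gave -0.88 on replicate 2 and 0.28 on replicate 3. Pcdh11x read 0.07, -0.72 and 0.36, where its measured probe on replicate 3 gave 0.72. In each of these 3 genes the probes differed in sign on at least 1 array.

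Of the other non-clustered genes, Pcdh21 had the highest ratios in pair 1. It encodes a cadherin of photoreceptors, now named Cdhr1, and read 1.02, 1.27 and -0.14. Over the 2 pairs it averaged 0.50 with a moderated SE of 0.49 and an adjusted p of 0.852 in limma. Pcdh12, a protocadherin of blood vessels, was below 0 on all arrays at -0.32, -1.31 and -0.35. Of its 2 probes, 1 read 0.02 on replicate 3. Pcdh15, which pairs with Cdh23 in hair cell tip links, read -0.17, -1.23 and -0.17, with 1 of its 2 probes not measured on replicates 1 and 3. Pcdh20 averaged 0.20, 0.39 and 0.29, with 1 probe above 0 on every array and the other below 0 on every array.

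**Figure D3:**
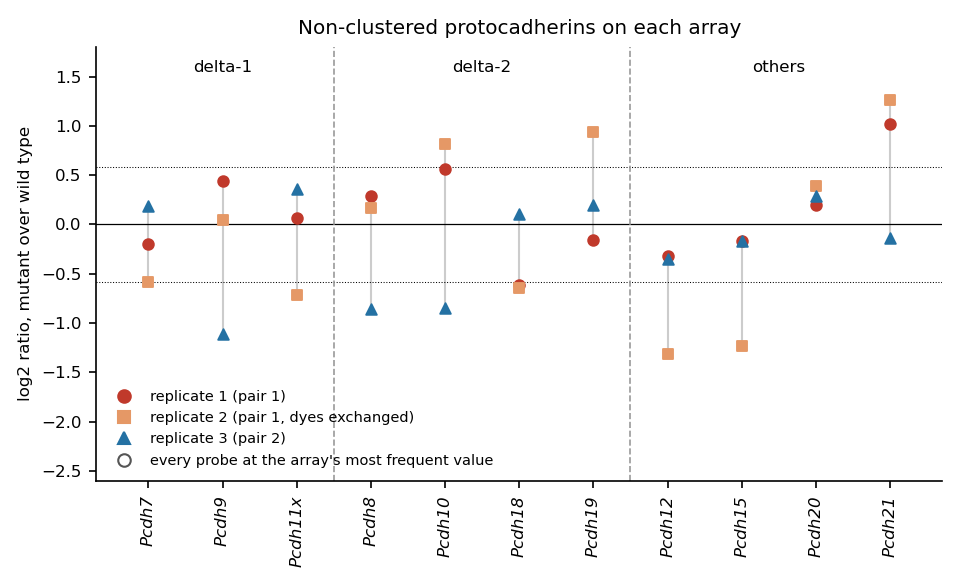
Log2 ratio (vertical axis) of each of the 11 non-clustered protocadherins on replicates 1, 2 and 3, averaged over a gene's probes. Dotted horizontal lines mark 1.5-fold, and solid vertical grey lines span a gene's values. On both arrays of pair 1 Pcdh18 lies just below the lower dotted line and Pcdh21 above the upper one. Pcdh8, Pcdh9 and Pcdh10 lie above 0 in pair 1 and below it on replicate 3.

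The clustered protocadherins did not repeat between the dye-swapped arrays. Of 55 genes measured on both arrays of pair 1, 32 (58.2%) had opposite signs on them, beside 42.1% of the 21856 features so measured. The same share was 36.8% for the Cdh genes (7 of 19) and 18.2% for the non-clustered protocadherins (2 of 11). Genes are not independent replicates, and across them Pearson's r between replicates 1 and 2 was -0.38 over the 55 clustered genes, and between replicates 1 and 3, which share their dyes, 0.28 over the 53 measured on all arrays. Between replicates 2 and 3 it was -0.39. Over all features measured on every array, r with replicate 3 was -0.02 for replicate 1 and -0.14 for replicate 2. Over the Cdh genes these were -0.56 and -0.59, and over the non-clustered protocadherins -0.37 and -0.18. Over all measured features r between replicates 1 and 2 was 0.31, over the Cdh genes 0.70 and over the non-clustered protocadherins 0.75. The 19 Cdh genes include the 5 past 1.5-fold lower on both arrays, and r without these 5 was not computed. All 7 Cdh genes of opposite sign are among the others, so that r = 0.70 does not show that Cdh genes in general repeat. All points of a panel share their arrays and RNAs, and the part of the dye in the clustered genes was not tested.

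**Figure D4:**
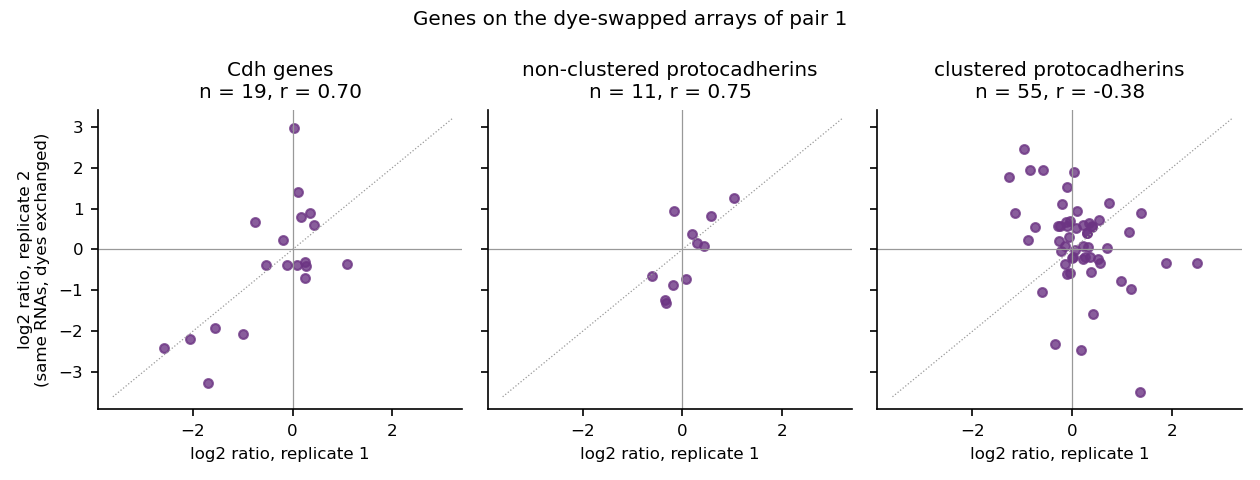
Log2 ratio on replicate 1 (horizontal axis) against replicate 2 (vertical axis), which holds the same RNAs with the dyes exchanged, for genes with a measured spot on both; each point is 1 gene, and the diagonal grey line marks equal values. The points of the 19 Cdh genes (r = 0.70) and 11 non-clustered protocadherins (r = 0.75) slope upward, and those of the 55 clustered protocadherins (r = -0.38) slope downward. Cdh1, Cdh3, Cdh5, Cdh11 and Cdh15 are the lowest Cdh points on both axes.

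The 14 genes of the alpha cluster had medians of 0.02, 0.13 and 0.02. Of the 14, 10 had opposite signs in pair 1 (71.4%, beside 42.1% of all features measured on both arrays). Pcdha10 was above 0 on all 3 arrays, at 0.29, 0.41 and 0.04, as was Pcdha9 at 0.69, 0.04 and 1.30. The C-type isoforms of the cluster, Pcdhac1 and Pcdhac2, were of 1 sign on all arrays, on different sides of 0. Pcdhac1 read 0.32, 0.05 and 0.16 at its measured probe and Pcdhac2 read -0.23, -0.03 and -0.69. Measured probes differed in sign on replicates 1 and 3 for Pcdha10 and on replicate 2 for Pcdhac2. The alpha genes ranged from -1.15 to 1.89 on replicate 1, and 0 of 14 passed 1.5-fold in one direction in pair 1, beside 14.7% of all features.

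The beta cluster, whose genes have 1 exon each and no shared exons, had medians of -0.01, 0 and 0.28 over 22 genes. It had the widest range of the clusters, from -1.26 to 2.50 on replicate 1, from -3.48 to 1.90 on replicate 2 and from -3.22 to 2.63 on replicate 3. Pcdhb14 read -0.61 and -1.04 in pair 1 and was not measured in pair 2. Pcdhb1 (0.22, 0.08 and 1.02) and Pcdhb17 (0.04, 1.90 and 0.15) were above 0 on all arrays, and Pcdhb9 (-0.04, -0.57 and -1.37) below. Chosen after its values were seen, Pcdhb13 had the widest gap between the dye-swapped arrays of all members, at 1.36 and -3.48, with 1.03 on replicate 3. Pcdhb18, also so chosen, read -1.26, 1.78 and -3.22.

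The gamma cluster had medians above 0 on each array, at 0.23, 0.54 and 0.15 over 22 genes. Of these, 9 (40.9%) were above 0 on both arrays of pair 1, beside 28.2% of all features so measured, and 1 (4.55%) was below on both, beside 29.7%. The other 12 had opposite signs (54.5%, beside 42.1%). Above 0 on all 3 arrays were 6 of 22 (27.3%, beside 12.9% of features) and below 0 on all 3 were 0. The 6 were Pcdhga2 (0.54, 0.37 and 0.03), Pcdhga3 (0.21, 0.60 and 0.20), Pcdhga12 (0.29, 0.41 and 0.56), Pcdhgb4 (0.39, 0.55 and 0.15), Pcdhgb5 (1.38, 0.89 and 0.24) and Pcdhgb7 (0.08, 0.53 and 0.28). The measured probe of Pcdhga2 gave 0.73 on replicate 2. Of the 6, Pcdhga12 has 1 probe. Each of the others had measured probes of opposite sign on at least 1 array, so that these means average disagreeing probes. On replicate 2 the probes of Pcdhgb5 read -0.59 and 2.37. Pcdhgb5 averaged 0.69 over the 2 pairs, with a moderated SE of 0.38 and an adjusted p of 0.852 in limma. Pcdhgb6 read 0.74 and 1.13 in pair 1 and -0.54 in pair 2. Its 2 probes read -0.32 and 1.79 on replicate 1. Probes of neighbouring isoforms may read each other's RNA because of their likeness, and probe positions are not known here, so that single isoforms are uncertain.

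**Figure D5:**
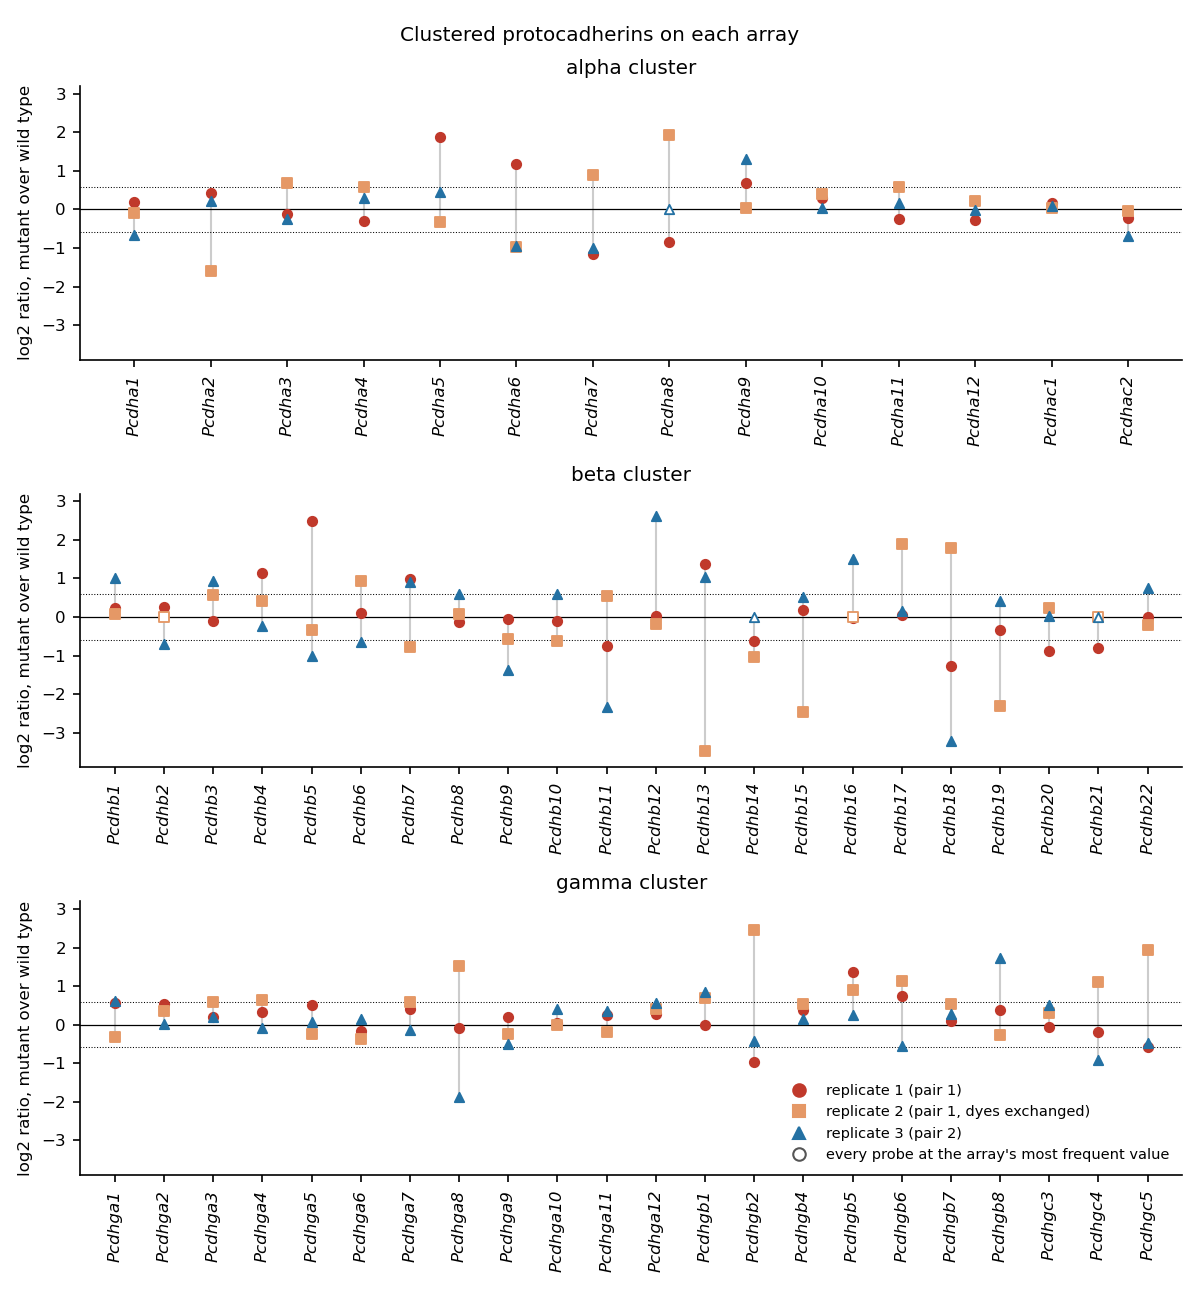
Log2 ratio (vertical axis) of each clustered protocadherin on replicates 1, 2 and 3, for the alpha (14 genes), beta (22 genes) and gamma (22 genes) clusters, averaged over a gene's probes. Dotted horizontal lines mark 1.5-fold, solid vertical grey lines span a gene's values, and open symbols mark genes with no measured spot on that array. In many genes replicates 1 and 2, which hold the same RNAs, lie on opposite sides of 0.

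Different probes of a gene often disagreed. Of 51 members with at least 2 probes, 41 had measured probes of opposite sign on at least 1 array: 7 of 9 Cdh genes, 27 of 34 clustered and 7 of 8 non-clustered protocadherins. Cdh2, Cdh3 and Pcdh10 were among the 10 without such a split. The older-name probe of Pcdh10, not counted here, had the opposite sign to its member probes on replicates 2 and 3. The median gap between a gene's lowest and highest measured probe was 0.93, 1.00 and 1.34 on replicates 1 to 3. As single probes, 2 of 151 were past 1.5-fold in one direction on all 3 arrays. They were a probe of Cdh20 (-0.70, -1.19 and -1.09), whose other probe read 1.19, -0.19 and 0.67, and a probe of Pcdhga4 (0.69, 1.41 and 0.92), whose other probe read -0.02, -0.11 and -1.06.

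Genes that act with cadherins gave 0 calls at limma's adjusted p of 0.05, and 0 at an unadjusted p of 0.05. Of 21 catenins and adhesion partners with a probe (22 listed), 2 (9.52%, beside 9.17% of all features) were past 1.5-fold lower on both arrays of pair 1 and 0 higher, with list medians of 0.20, 0.10 and -0.03. They were Ctnnd1, the p120 catenin that holds classical cadherins at the membrane (-0.78, -1.70 and 0.66), and Vcl, vinculin, which links junctions to actin (-1.79, -2.15 and 0.18).

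Of 24 other genes of the cadherin superfamily, 19 had a probe and were not members, with 2 past the threshold higher in pair 1 (10.5%, beside 5.55% of all features) and 2 lower (10.5%, beside 9.17%). Higher were Celsr1 (2.00, 1.48 and 0.14) and Celsr3 (1.04, 1.78 and -1.06), cadherins of planar polarity and axon tract formation. Lower were Fat1, a giant protocadherin (-0.76, -1.12 and 0.76), and Ret, a receptor tyrosine kinase with cadherin-like domains (-2.21, -1.06 and 3.08). Of 14 regulators of the clustered protocadherin promoters with a probe (15 listed), 8 (57.1%, beside 28.2% of all features so measured) were above 0 on both arrays of pair 1 and 2 (14.3%, beside 29.7%) below, with list medians of 0.20, 0.15 and 0.31. Rest, a repressor of neuronal genes, was the 1 past the threshold (7.14%), at -1.70, -1.03 and 0.45. Ctcf, which loops enhancers to these promoters and is named though not past it, read 0.14, 0.52 and 1.06.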

How the data were processed

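The deposited log2 ratios of the authors were used as given. That they are log2 ratios, centred near 0, was read from the values: both signs occur and the array medians are 0.009, 0 and 0.001. On replicates 2 and 3, 58 and 45 spots lay within 0.0015 of log2 of 3 above the most frequent value, against 21 and 18 in surroundings 4 times as wide. Replicate 1 showed no such excess (13 against 42), and its base is taken from the other arrays, whose SDs (1.32 and 1.26) are near its own (1.25). Scanner, background correction, normalization and spot filter are not given in the sources used here. Precision is limited by having 3 arrays. Symbols come from the platform annotation (30457 of 38880 probes had 1 symbol, 0 several, 8423 none), updated through RefSeq synonyms (GRCm38.p6). Probes of a symbol were averaged. Spots at an array's most frequent value were kept in averages, and counts of signs left them out.

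Replicates 1 and 2 were averaged and tested with replicate 3 over all 28342 features in limma 3.58.1 under R 4.3.3 (lmFit, eBayes, Benjamini-Hochberg, threshold 0.05). The same fit was also run on simulated data with known answers, and its outcome there is not given here. Nothing states that samples came from separate animals, so that p-values measure only the spread between these pairs. Every Cdh gene and non-clustered protocadherin was named. Clustered ones were named if past 1.5-fold in one direction on both arrays of pair 1 or of 1 sign on all 3 at measured spots, and list genes if past it. Ctcf was named outside this rule. Marker genes of tissues and cell types were named as examples, past it or not. The members, lists and tests were chosen with earlier results of these data known. Promoters are RefSeq's. Summaries used Python 3.11.15 and plots matplotlib 3.10.9.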

Additional observations from a re-analysis of the deposited data

How the results depend on the processing

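Limma called 0 members and 0 features of any kind in the main setting and in all 11 alternatives, where 0 to 8 members had an unadjusted p under 0.05 and the lowest adjusted p of any feature was 0.682 to 0.9995. With 2 pairs the count could hardly move, so that it says nothing about stability. The count of 0 members past 1.5-fold on all 3 arrays became 2 of 151 with each probe as a feature and lay between 3 and 10 when any 1 array was dropped, since only 2 then had to be past it. The 10 members past it in pair 1 became 18 of 151 probes and 5 genes at 2-fold (Cdh1, Cdh3, Cdh5, Cdh11 and Pcdh21). With the median of a gene's probes Pcdh10 entered and Cdh3 left, and with arrays centred on measured spots Pcdh10 entered and Pcdhb14 left. The Cdh median of pair 1 was -0.31 without replicate 1 and 0.018 without replicate 2, and that of pair 2 was 0.31 without spots at the most frequent value. The clustered median of pair 1 was 0.084 over probes and 0.064 to 0.147 with 1 array left out. In pair 2 it was 0.001 over probes, 0.161 without those spots and 0.16 after centring. The non-clustered median of pair 1 was -0.0605 over probes and 0.048 to 0.066 with 1 array left out, and in pair 2 it was 0.001 with probes under older names. Causes were not tested. The use of older names, and the Cdh genes of types I and II alone, were alternatives chosen after seeing the data.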

Other observations

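The platform lists 14 further probes, of 10 genes, under names that RefSeq gives as synonyms of Cdh or Pcdh genes. They were not members. Pcdh17, a delta-2 protocadherin of brain circuits, read 1.41 and 1.24 in pair 1 at its probe and was not measured in pair 2. The 2 probes of Pcdh1, a delta-1 protocadherin, read 0.62 and -0.93 on replicate 1, -0.75 and -0.28 on replicate 2 and 0.57 and 0.66 on replicate 3. A probe of Cdh18 under its older name read -0.17, 0.84 and 5.22, above 0 on replicates 2 and 3 as at the Cdh18 probe among the members. On replicate 1 its sign was opposite to that of the member probe. The same held there for the older-name probes of Cdh4, Cdh24, Cdh26, Pcdh11x and Pcdh19, set beside the member means. Those of Cdh10 ranged from -0.69 to 1.44 on replicate 1. The Pcdh10 probe had the sign of its member probes on replicate 1 only. Cdh1 is also an older name of Fzr1, a cell cycle protein that binds the anaphase-promoting complex. Fzr1 has probes of its own, which averaged 0.22, 0.24 and 0.06, unlike the probe listed as Cdh1.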
